A study of Mus musculus with 2 samples.

Results

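Amino acid transporter genes were described in a mouse embryonic stem cell line given doxycycline to lower its endogenous OCT-4. It did or did not express a fusion of EWS to OCT4A. The genes were those with a symbol of the SLC1, SLC3, SLC6, SLC7, SLC36, SLC38 or SLC43 solute carrier families, leaving out Slc38a4, and each was measured by a probe set annotated to that gene alone. They numbered 63 of the 22180 genes with such a probe set, and 67 probe sets measured them. Where a gene had several probe sets, as 4 genes did, the one with the highest mean of both samples was kept. The rule itself uses symbols and mean values and no difference between the samples, but it was drawn up with earlier results of these data known. The set is broader than its name. It takes in Slc6a6, Slc6a8, Slc6a11, Slc6a12 and Slc6a13, which encode carriers of taurine, creatine, betaine or GABA. Slc6a2, Slc6a3 and Slc6a4 encode carriers of noradrenaline, dopamine and serotonin, Slc43a3 encodes a nucleobase carrier, Slc6a16 and Slc6a21 are orphans, and 3 entries (Slc7a6os, Slc36a1os and Slc6a19os) are genes on the strand opposite to a carrier gene. This left 60 genes of the carriers themselves. A probe set annotated to both Slc6a9 and Ccdc24 was not used. It read 5.05 in EWS-OCT4A-GFP and 6.10 in GFP, a log2 difference of -1.05 that is assigned to neither gene here.

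The series holds 2 samples, 1 of the Niwa EWS-OCT4A-GFP stable line and 1 of the Niwa-GFP stable line, its control. OCT4A is the pluripotency isoform of the POU factor encoded by POU5F1, and EWS, encoded by EWSR1, is an RNA-binding protein that is part of several human tumour fusions. Both lines derive from the same embryonic stem cells, were kept in medium containing LIF, and were given 1 µg/ml of doxycycline. Lowered endogenous OCT-4 was thus intended in both lines. No sample without doxycycline is included, so the extent of the lowering in each line was not measured here. The question is how the line with the fusion differs from its control under doxycycline. With 1 line for each transgene, an effect of the fusion cannot be told apart from other differences between the lines. The promoter that drives each transgene, whether a line is a clone or a pool, and the length of the treatment are not given in the sources used here. Labelled cDNA made from total RNA was hybridised to an Affymetrix whole-transcript array, and values are log2 summaries per probe set. With 1 sample per line there is no replicate, no error can be given and no test was made, so each difference describes these 2 samples. The submitters' design note speaks of duplicates, but whether a column is a replicate or a mean of replicates is not given.

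Values of the samples had medians of 4.11 in EWS-OCT4A-GFP and 4.08 in GFP over 33793 probe sets. The floor used here is the median of all values in both columns, 4.10, and a gene is at or above the floor when the higher value of its pair is. Pou5f1 itself read 5.37 in EWS-OCT4A-GFP and 5.24 in GFP, and which of the endogenous and fusion transcripts its probe set detects is not given. Of 8 embryonic stem cell markers, 7 were at least 2-fold higher in EWS-OCT4A-GFP and the eighth, Dppa5a, lay under the floor. Their linear values summed to 6378.4 in EWS-OCT4A-GFP and 447.3 in GFP, where Esrrb and Fgf4 also lay under the floor. Of 8 trophectoderm markers, 6 were at least 2-fold lower in EWS-OCT4A-GFP, and they summed to 315.1 in EWS-OCT4A-GFP and 5459.3 in GFP, with Elf5 under the floor in EWS-OCT4A-GFP. Of 6 primitive endoderm markers 3 were at least 2-fold lower, and they summed to 105.7 in EWS-OCT4A-GFP and 266.9 in GFP, with Sox17 under the floor in both and Gata6 under it in EWS-OCT4A-GFP. Of 6 fibroblast markers 1, Postn, was at least 2-fold lower, and they summed to 137.7 in EWS-OCT4A-GFP and 203.5 in GFP, with Postn under the floor in EWS-OCT4A-GFP and Col1a2 in GFP. The 2 samples thus differ in markers of cell type, and the part of this in any transporter difference given here was not tested. In a bulk sample, fewer cells of a type and less RNA per cell cannot be told apart.

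Amino acids do not cross the plasma membrane freely, and each carrier family moves its own group of them. SLC7 proteins are either cationic amino acid transporters, which work alone, or light chains that reach the membrane bound to a heavy chain of the SLC3 family. SLC1 proteins take up glutamate or exchange small neutral amino acids, and SLC38 proteins carry glutamine and other small neutral amino acids with sodium. SLC6 proteins use sodium and chloride, several SLC36 proteins use protons, and SLC43 proteins carry large neutral amino acids. Mouse embryonic stem cells are known for their dependence on threonine catabolism, and arginine, leucine and glutamine signal to the growth-controlling kinase complex mTORC1. Transport of these amino acids is therefore a common entry point to growth and metabolism.

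The transporter genes differed in both directions, led by Slc7a3, which was 45.3-fold higher in EWS-OCT4A-GFP than in GFP. Of the 63 genes, 42 were at or above the floor. Among these 42, 5 were at least 2-fold higher in EWS-OCT4A-GFP (11.9%) and 8 at least 2-fold lower (19.0%), and 29 were within 2-fold. Over the 13516 genes of the array that passed the floor, 9.31% were higher by 2-fold or more and 11.9% were lower. These shares are sizes without error, and nothing particular to the transporter genes is read from them. Their median log2 difference was -0.003 at or above the floor, against 0.03 for all genes, and the middle 50% ran from -0.74 to 0.23, against -0.46 to 0.46 for all genes. The 5 higher genes were Slc7a3, Slc43a1, Slc6a16, Slc6a15 and Slc1a3. The 8 lower genes were Slc6a14, Slc1a1, Slc7a8, Slc43a3, Slc38a1, Slc6a8, Slc6a6 and Slc7a1.

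Genes of the higher and lower sets lay in different ranges of the array. All 5 higher genes read under the floor in GFP, between 3.14 and 3.97, while their EWS-OCT4A-GFP values ran from 4.40 to 8.95. The 8 lower genes read between 7.50 and 10.8 in GFP, and 7 of the 8 also read above the floor in EWS-OCT4A-GFP, with Slc6a14 as the exception. The same was not counted over all higher and lower genes of the array. Nothing particular to the transporter genes is therefore read from these ranges. How far a value under the floor lies above background is unknown, so the sizes given for the 5 higher genes are uncertain. With GFP values set to the floor, Slc1a3 fell short of 2-fold and the other 4 did not.

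**Figure D1:**
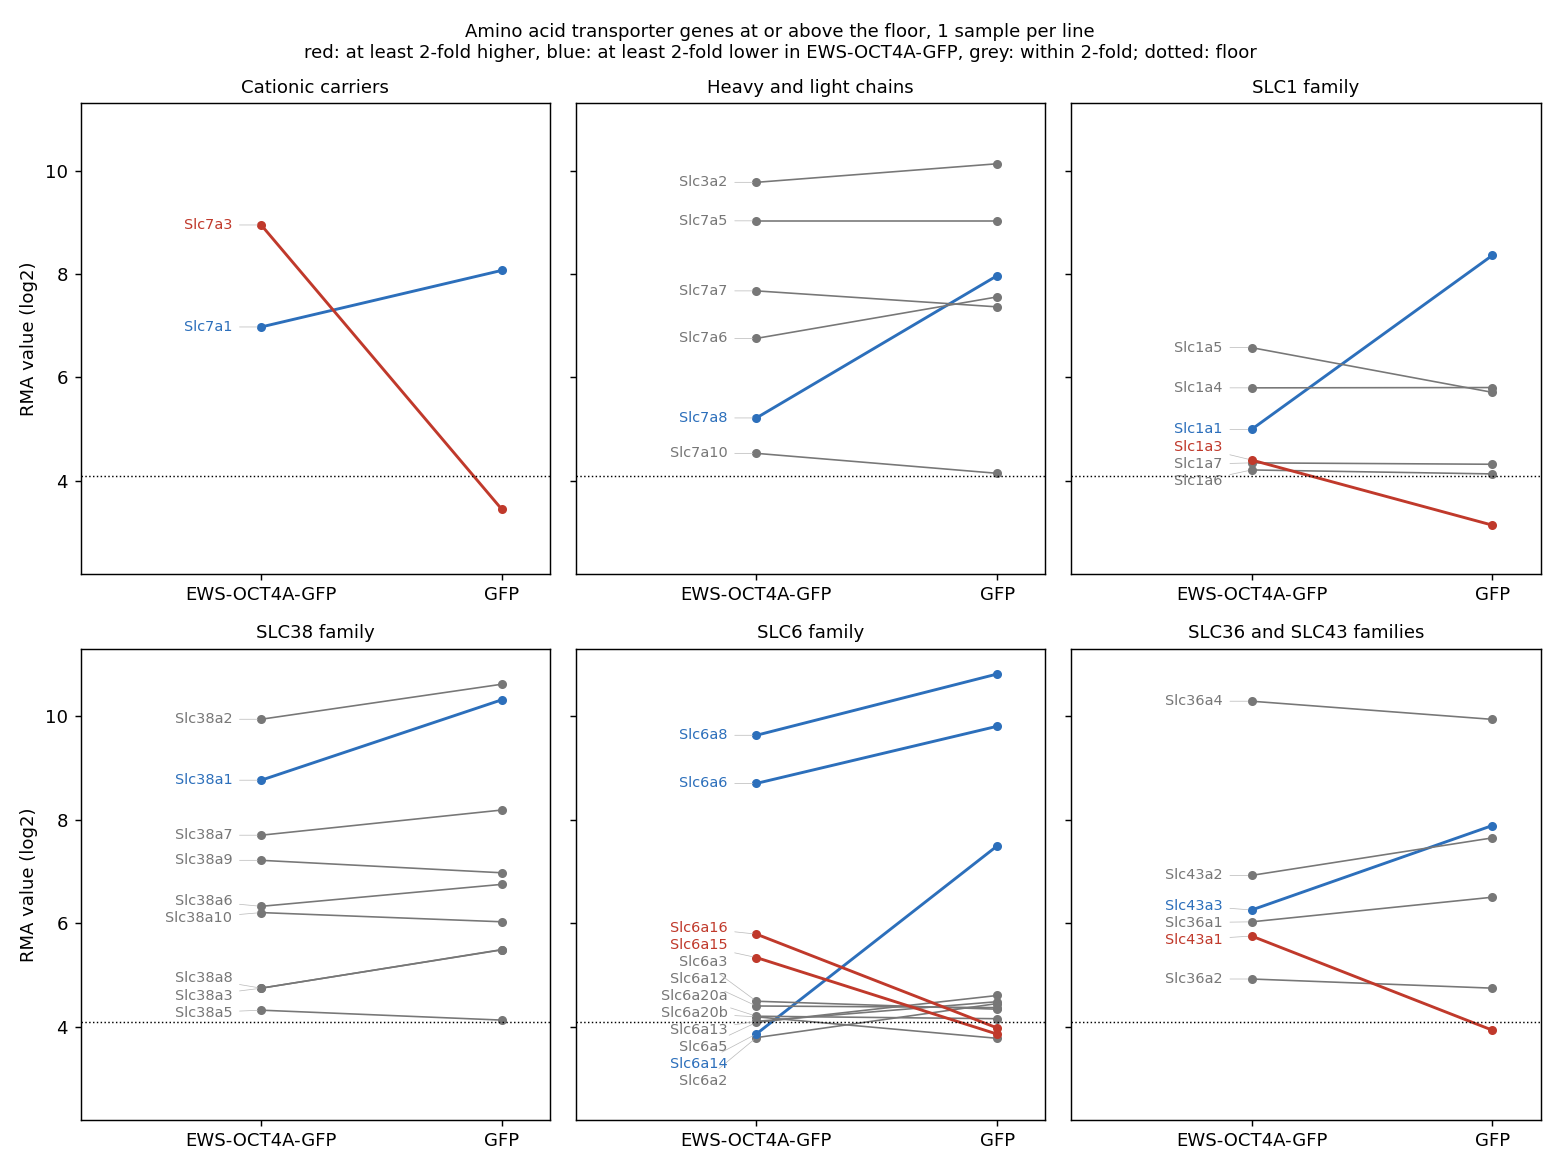
RMA values (log2, vertical axis) of the 41 carrier genes at or above the floor, with EWS-OCT4A-GFP left and GFP right in each panel and a line joining the values of a gene. Slc7a3 joins 8.95 in EWS-OCT4A-GFP to 3.45 in GFP, and all 5 red genes end under the dotted floor of 4.10 in GFP.

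The cationic carriers held opposite differences. Slc7a3 (probe set 17543529) encodes CAT3, a carrier of arginine and lysine, and read 8.95 in EWS-OCT4A-GFP and 3.45 in GFP. Its log2 difference was 5.50, which ranked 6 from the top among 22180 genes. With the GFP value set to the floor the difference was 28.9-fold, and with every value under the floor set to it the rank was 5. Slc7a1 (probe set 17455401) encodes CAT1, the widely expressed carrier of the same amino acids, and read 6.98 in EWS-OCT4A-GFP and 8.07 in GFP, a log2 difference of -1.10 or 2.14-fold lower. The pair thus differed in opposite directions, by unequal sizes. Slc7a2, which encodes CAT2, read 3.93 in EWS-OCT4A-GFP and 4.07 in GFP, under the floor in both. Slc7a4, a relative without established transport activity, read 3.92 in EWS-OCT4A-GFP and 2.91 in GFP. Its difference of 1.01 is the only one of at least 2-fold among the 21 transporter genes under the floor in both samples. Slc7a14, which encodes a lysosomal member of this branch, was also under the floor, with 2.69 in EWS-OCT4A-GFP and 3.09 in GFP.

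Promoter windows of 300 bases, from 250 before to 50 after a gene start, were taken from RefSeq for assembly GRCm38.p6 and searched on both strands for 4 letter patterns. They were the octamer bound by OCT4 (ATGCAAAT), the core of the amino acid response element bound by ATF4 (TGATGNAA), the E-box bound by MYC and related factors (CACGTG) and the core of the antioxidant response element bound by NRF2 (TGACNNNGC). The table held 63 windows of 46 transporter genes, and 7 of the 13 genes past 2-fold had a window. Slc7a3 was not among them. The windows of Slc7a1, Slc6a16 and Slc43a1 are shown because these are the genes past 2-fold whose window holds a searched pattern, and that of Slc7a11 because it was the one that held both the octamer and the amino acid response core. Capitals mark the matches, and each sequence runs 5′ to 3′ on the strand of the gene.
Slc7a1, chr5:148399855-148400154, minus strand: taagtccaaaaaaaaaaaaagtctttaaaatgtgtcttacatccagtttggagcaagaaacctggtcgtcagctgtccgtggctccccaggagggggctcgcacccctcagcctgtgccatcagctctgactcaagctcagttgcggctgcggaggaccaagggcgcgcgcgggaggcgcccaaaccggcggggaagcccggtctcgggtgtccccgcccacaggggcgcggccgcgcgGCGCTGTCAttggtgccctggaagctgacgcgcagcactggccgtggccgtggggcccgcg
Slc7a11, chr3:50443564-50443863, minus strand: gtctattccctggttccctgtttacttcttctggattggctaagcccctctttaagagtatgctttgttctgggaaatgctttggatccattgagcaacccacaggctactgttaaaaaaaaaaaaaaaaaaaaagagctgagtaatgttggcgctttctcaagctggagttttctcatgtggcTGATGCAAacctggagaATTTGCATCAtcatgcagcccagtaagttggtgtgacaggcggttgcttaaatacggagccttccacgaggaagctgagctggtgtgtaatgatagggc
Slc6a16, chr7:45240503-45240802, plus strand: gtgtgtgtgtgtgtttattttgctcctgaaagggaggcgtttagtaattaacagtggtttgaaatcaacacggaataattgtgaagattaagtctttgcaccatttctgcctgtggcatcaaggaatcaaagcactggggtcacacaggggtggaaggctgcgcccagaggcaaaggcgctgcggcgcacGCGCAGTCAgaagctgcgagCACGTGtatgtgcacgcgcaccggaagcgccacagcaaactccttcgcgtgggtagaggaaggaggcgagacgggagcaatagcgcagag
Slc43a1, chr2:84840073-84840372, plus strand: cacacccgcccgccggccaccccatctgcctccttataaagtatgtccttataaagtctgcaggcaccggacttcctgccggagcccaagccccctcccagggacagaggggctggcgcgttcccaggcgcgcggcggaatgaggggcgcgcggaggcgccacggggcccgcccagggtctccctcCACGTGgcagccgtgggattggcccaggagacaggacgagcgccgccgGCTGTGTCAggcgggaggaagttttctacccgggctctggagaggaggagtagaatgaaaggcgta
In the Slc7a1 window the capitals are an antioxidant response core that begins 11 bases before the gene start. In the windows of Slc6a16 and Slc43a1 they are an antioxidant response core and an E-box, which do not overlap. The Slc7a11 window holds 3 matches, an amino acid response core that begins 66 bases before the start, and an octamer (49 bases before) that overlaps a further amino acid response core (47 bases before). A match is a stretch of letters and not a site shown to be bound.

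The share of windows with a match differed between the patterns. The octamer was found in 2 of 63 transporter windows (3.17%), those of Slc7a11 and Slc6a12, and in 1.74% of all 32851 windows. The amino acid response core was found in 5 (7.94%), of Slc7a11, Slc7a7, Slc1a4 and Slc6a21, against 3.97% of all. The E-box was found in 9 (14.3%) against 7.15%, and the antioxidant response core in 10 (15.9%) against 12.4%. None of the 7 genes past 2-fold with a window held the octamer or the amino acid response core there. The E-box was found in 2 of these 7 genes, Slc6a16 and Slc43a1, both higher in EWS-OCT4A-GFP. The antioxidant response core was found in the same pair and in Slc7a1, which was lower. Counts among these 7 are of genes, while the shares above are of windows. No link between a pattern and a direction is read from them.

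Among the heteromeric carriers, a light chain of large neutral amino acid exchange was lower and its heavy chain differed little. Slc3a2 encodes the heavy chain CD98, which brings most light chains to the plasma membrane. It read 9.77 in EWS-OCT4A-GFP and 10.1 in GFP, a log2 difference of -0.36. Its main partner for leucine uptake, LAT1, is encoded by Slc7a5, which read 9.03 in both samples, a difference of 0.00 at the 3 decimals deposited. Exactly equal values were found for 949 of the 22180 genes, and their cause was not tested. The tie is thus not read as a precise measure of an unchanged gene. Slc7a8 (probe set 17306477) encodes LAT2, a light chain with a wider range of neutral substrates, and read 5.22 in EWS-OCT4A-GFP and 7.97 in GFP. Its difference was -2.75 or 6.74-fold lower, the 210th lowest of all genes.

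Light chains that exchange cationic for neutral amino acids were within 2-fold. Slc7a6 read 6.75 in EWS-OCT4A-GFP and 7.56 in GFP, a difference of -0.80, whereas Slc7a7, whose human form is mutated in lysinuric protein intolerance, read 7.67 in EWS-OCT4A-GFP and 7.36 in GFP, a difference of 0.31. Slc7a10, a carrier of small neutral amino acids including D-serine, differed by 0.39 (4.53 in EWS-OCT4A-GFP and 4.14 in GFP). Slc7a11 encodes xCT, the cystine-glutamate exchanger that supplies cysteine for glutathione. It read 2.15 in EWS-OCT4A-GFP and 2.06 in GFP, and its other probe set read 1.80 in EWS-OCT4A-GFP and 1.93 in GFP, so both probe sets lay under the floor in both samples. The same was true of Slc7a9 (3.88 in EWS-OCT4A-GFP and 3.10 in GFP) and of its heavy chain partner Slc3a1 (3.23 in EWS-OCT4A-GFP and 3.98 in GFP), which together form the cystine carrier affected in human cystinuria. Of the 10 light chain genes, 5 were at or above the floor, and 1 of these was 2-fold lower and none 2-fold higher. Over all genes that passed the floor, 11.9% were lower and 9.31% higher by 2-fold or more. With so few light chain genes, nothing particular to them is read from this count.

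In the SLC1 family a glutamate carrier gene, Slc1a1, was lower in EWS-OCT4A-GFP. Slc1a1 (probe set 17358466) encodes EAAT3, which takes up glutamate, aspartate and cysteine, and read 4.99 in EWS-OCT4A-GFP and 8.36 in GFP. The difference was -3.37 or 10.3-fold lower, the 115th lowest of all genes. Slc1a3, which encodes the glutamate carrier GLAST of astrocytes, read 4.40 in EWS-OCT4A-GFP and 3.14 in GFP. Its log2 difference was 1.26 or 2.40-fold, and 0.30 or 1.24-fold, short of the 2-fold threshold, with the GFP value at the floor. The other glutamate carriers Slc1a6 and Slc1a7 differed by 0.08 and 0.03 and read near the floor, and Slc1a2 lay under it.

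Neutral exchangers of the same family were within 2-fold. Slc1a5 encodes ASCT2, a major entry route for glutamine, and read 6.58 in EWS-OCT4A-GFP and 5.71 in GFP. The difference was 0.87 or 1.82-fold, and it was the one transporter gene at or above the floor between 1.5-fold and 2-fold higher. A further Slc1a5 probe set read 4.26 in EWS-OCT4A-GFP and 3.93 in GFP, a difference of 0.34. Slc1a4, which encodes the related ASCT1, carrier of serine and alanine, read 5.80 in EWS-OCT4A-GFP and 5.80 in GFP, a difference of -0.01.

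In the SLC38 family, 1 of 9 genes that passed the floor was 2-fold lower and none 2-fold higher, and 6 had a negative difference, as did 6425 of 13516 genes of the array. The share of 2-fold lower genes, 11.1%, was close to the 11.9% of all genes. Slc38a1 (probe set 17320907) encodes SNAT1, a sodium-coupled glutamine carrier, and read 8.77 in EWS-OCT4A-GFP and 10.3 in GFP, a difference of -1.56 or 2.94-fold lower. Its chromosomal neighbour Slc38a2 encodes SNAT2, a carrier that is induced when amino acids are scarce, and read 9.95 in EWS-OCT4A-GFP and 10.6 in GFP, a difference of -0.68. Slc38a3 (-0.75), a carrier of glutamine and histidine, and Slc38a8 (-0.74) lay between 1.5-fold and 2-fold lower. Slc38a7, which encodes a lysosomal exporter of glutamine and asparagine, differed by -0.49, and the orphan Slc38a6 by -0.43. Slc38a9 encodes the lysosomal arginine sensor of mTORC1 and read 7.22 in EWS-OCT4A-GFP and 6.98 in GFP, a difference of 0.24. Slc38a10 differed by 0.18 with the probe set used and by -0.20 with the other, whose values lay under the floor. Slc38a5, a further glutamine carrier, differed by 0.19. The family's median difference at or above the floor was -0.49.

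**Figure D2:**
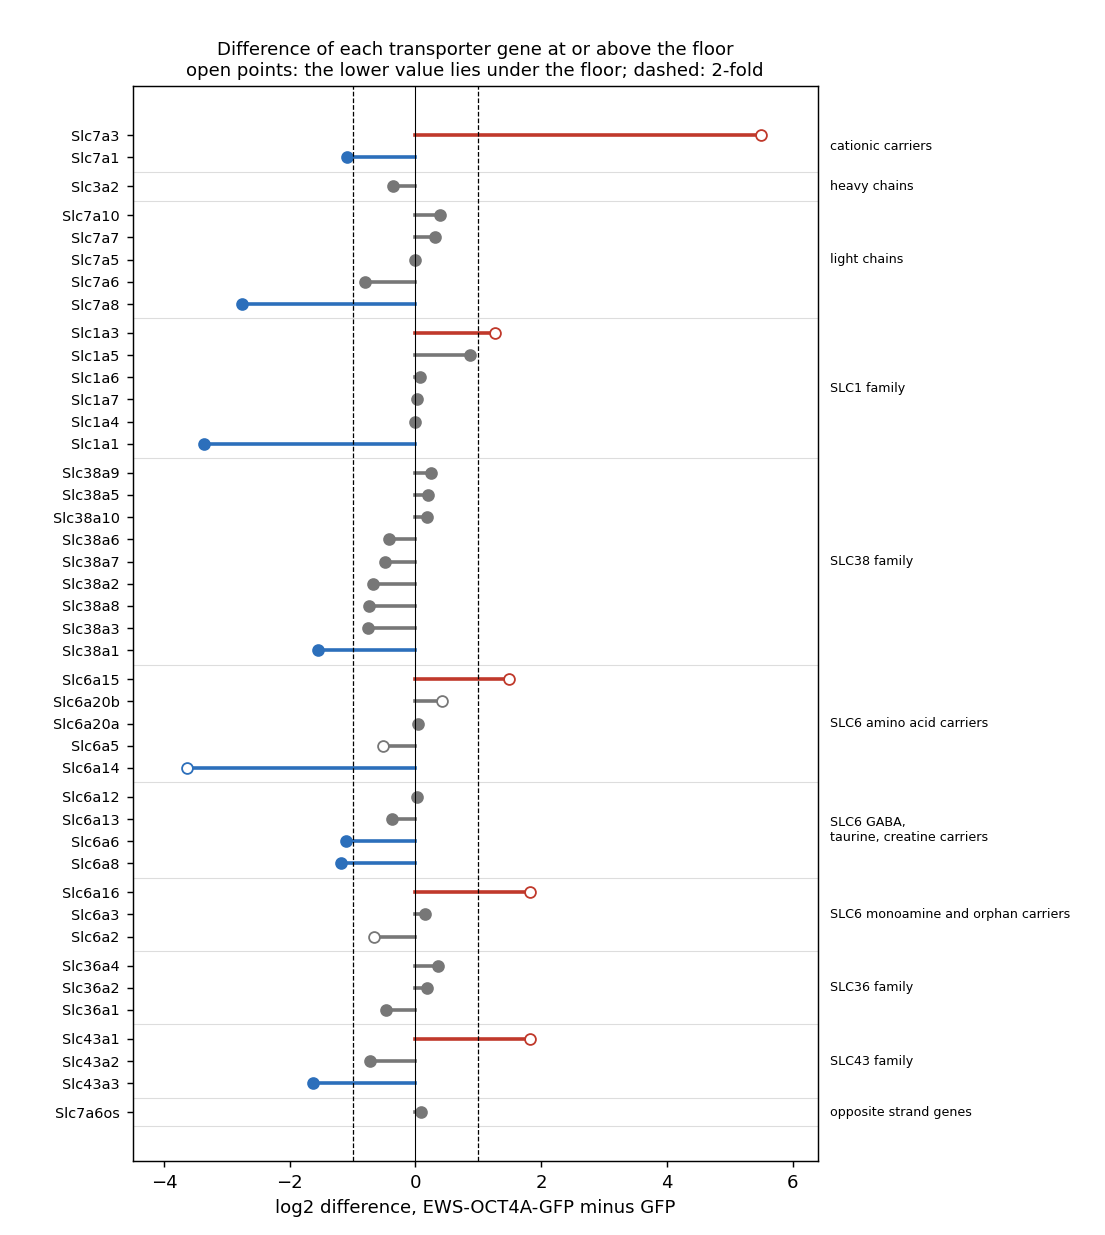
Log2 difference, EWS-OCT4A-GFP minus GFP (horizontal axis), of the 42 transporter genes at or above the floor, grouped by transport system. The 5 genes beyond the right dashed line all have open points, meaning that 1 value of the pair lies under the floor, and 7 of the 8 genes beyond the left dashed line have filled points.

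Within the SLC6 family the carriers of amino acids differed in both directions. Slc6a14 (probe set 17533755) encodes a carrier of both neutral and cationic amino acids, and read 3.86 in EWS-OCT4A-GFP and 7.50 in GFP. The difference was -3.64 or 12.4-fold lower, the 84th lowest of all genes, and 10.5-fold with the EWS-OCT4A-GFP value at the floor. Slc6a15 (probe set 17237035), which encodes a brain carrier of branched-chain amino acids and proline, read 5.34 in EWS-OCT4A-GFP and 3.86 in GFP, a difference of 1.48 or 2.79-fold higher. With the GFP value at the floor it was 2.36-fold. Slc6a5, a glycine carrier of neurons, differed by -0.52, and the proline carrier pair Slc6a20a and Slc6a20b by 0.05 and 0.42. The intestinal and renal carrier Slc6a19, its neighbour Slc6a18, Slc6a7 and Slc6a17 lay under the floor in both samples.

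Carriers of the organic osmolyte taurine and of creatine were both lower in EWS-OCT4A-GFP. Slc6a6 (probe set 17460941) encodes the taurine transporter and read 8.71 in EWS-OCT4A-GFP and 9.81 in GFP, a difference of -1.11 or 2.15-fold lower. Slc6a8 (probe set 17535607) encodes the creatine transporter and read 9.64 in EWS-OCT4A-GFP and 10.8 in GFP, a difference of -1.19 or 2.27-fold lower. Slc6a12, which carries betaine and GABA, differed by 0.03 and the GABA carrier Slc6a13 by -0.38, both reading near the floor, and Slc6a11 lay under it. The orphan Slc6a16 (probe set 17477754), whose window is printed above, read 5.79 in EWS-OCT4A-GFP and 3.97 in GFP, a difference of 1.82, or 3.23-fold with the GFP value at the floor. Its chromosomal neighbour Slc6a21 read 2.68 in EWS-OCT4A-GFP and 3.27 in GFP. The monoamine carriers Slc6a2 (-0.66) and Slc6a3 (0.15) were within 2-fold, and Slc6a4 lay under the floor.

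Carriers of the SLC43 family, which move large neutral amino acids without sodium, differed in opposite directions. Slc43a1 (probe set 17372621) encodes LAT3 and read 5.75 in EWS-OCT4A-GFP and 3.93 in GFP, a difference of 1.82, or 3.15-fold with the GFP value at the floor. Slc43a2, which encodes LAT4, read 6.93 in EWS-OCT4A-GFP and 7.65 in GFP, a difference of -0.73. The nucleobase carrier gene Slc43a3 (probe set 17372644) read 6.26 in EWS-OCT4A-GFP and 7.89 in GFP, a difference of -1.63 or 3.10-fold lower. The 3 genes of the SLC36 family at or above the floor were all within 2-fold, and Slc36a3 lay under the floor in both samples. Slc36a1, whose product exports small amino acids from lysosomes, read 6.03 in EWS-OCT4A-GFP and 6.50 in GFP, a difference of -0.48. Slc36a4 differed by 0.35 with the probe set used, which read 10.3 in EWS-OCT4A-GFP and 9.94 in GFP. Its other probe set read 4.56 in EWS-OCT4A-GFP and 4.91 in GFP, near the floor, and differed by -0.36. The direction of Slc36a4 thus depends on the probe set. Slc36a2 differed by 0.18. The opposite-strand gene Slc7a6os, which encodes a protein of its own, differed by 0.09, against -0.80 for Slc7a6, and Slc36a1os and Slc6a19os lay under the floor.

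**Figure D3:**
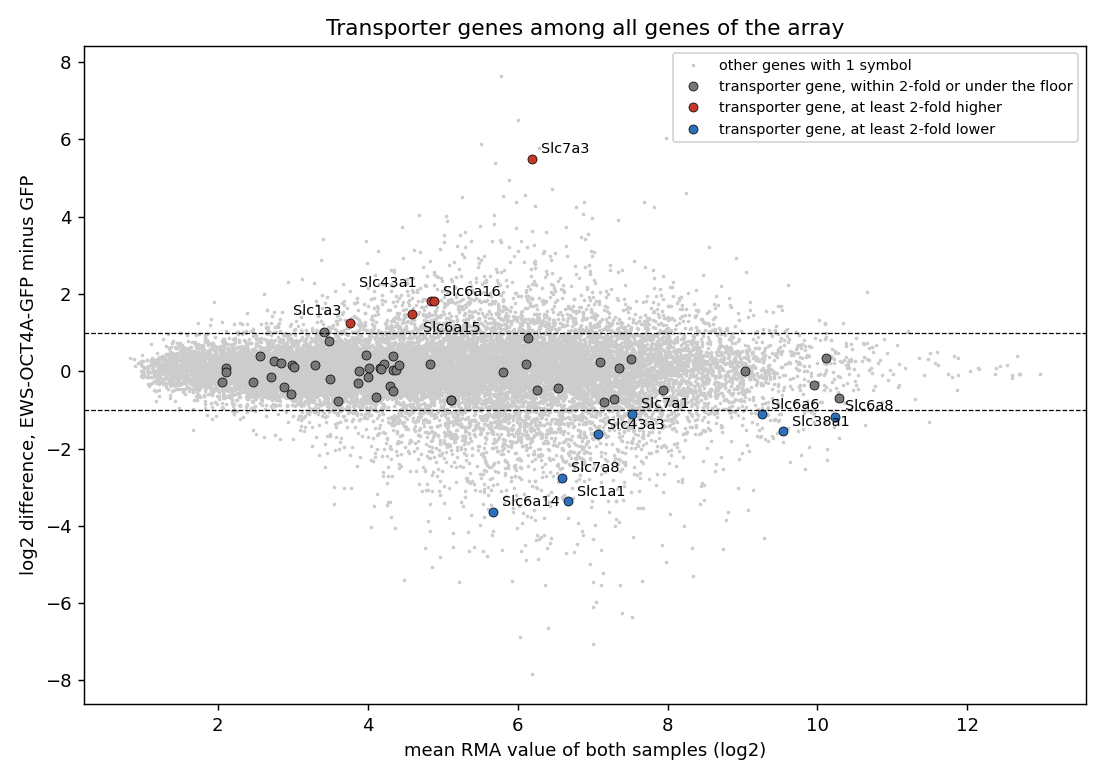
Log2 difference (vertical axis, EWS-OCT4A-GFP minus GFP) against the mean RMA value of both samples (log2, horizontal axis), with the 63 transporter genes over all other genes with 1 symbol in grey. Slc7a3, at 5.50, stands near the upper edge of the grey points at its mean level, and Slc6a14 (-3.64) and Slc1a1 (-3.37) are the lowest transporter genes.

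Other genes of amino acid supply and use were read as 7 lists drawn up from general knowledge, and their counts are to be set beside the same 9.31% higher and 11.9% lower of all genes. Genes of the ATF4 and amino acid response were split, with 5 of 24 at least 2-fold higher, 3 at least 2-fold lower and a median of 0.00. Cebpb (-1.97) and Atf3 (-1.85), which encode transcription factors of the stress response, and Vldlr (-1.44), a lipoprotein receptor gene, were lower. Mthfd2 (1.41), an enzyme of mitochondrial folate metabolism, was higher. These are the 4 genes of the list with the largest differences, so most of the 5 higher genes are not named. Atf4 read 7.27 in EWS-OCT4A-GFP and 6.97 in GFP, a difference of 0.31 (chosen after its value was seen). Of the 18 cytosolic aminoacyl-tRNA synthetase genes measured, 1 was 2-fold higher and none 2-fold lower, with a median of 0.22. Farsb, a subunit of the phenylalanyl-tRNA synthetase, read 8.33 in EWS-OCT4A-GFP and 7.04 in GFP, a difference of 1.30, followed by Vars (0.78), Tars (0.70) and Eprs (0.61), synthetases for valine, threonine, and glutamate and proline.

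Amino acid sensing by mTORC1 had 1 gene 2-fold higher and 3 lower of 26. The outlying gene was Rragb, which encodes a Rag GTPase that recruits mTORC1 to lysosomes, with 6.32 in EWS-OCT4A-GFP and 2.60 in GFP, a difference of 3.73 against a GFP value under the floor. Castor1, which encodes a cytosolic arginine sensor, read 5.60 in EWS-OCT4A-GFP and 7.20 in GFP, a difference of -1.59. The leucine sensor family gene Sesn1 differed by -1.51, and Rragc, a partner of RagA and RagB, by -1.26. Amino acid and peptide carriers outside the chosen families had none 2-fold higher and 1 lower of 14 at or above the floor. This was Ctns, the lysosomal cystine exporter, with 7.41 in EWS-OCT4A-GFP and 8.57 in GFP, a difference of -1.16. Slc25a15, the mitochondrial ornithine carrier, differed by 0.90 and Slc25a38, a mitochondrial glycine carrier, by 0.69.

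Enzymes of glutamine and glutamate, arginine and ornithine, and glutathione metabolism completed the lists. For glutamine and glutamate, 4 of 9 genes that passed the floor were 2-fold higher and none lower, with a median of 0.68. Ppat, which uses glutamine to start purine synthesis, differed by 1.78 (9.01 in EWS-OCT4A-GFP and 7.23 in GFP), the transaminase genes Got1 and Gpt2 by 1.32 and 1.16, and the gene of the glutamine-making enzyme, Glul, by 1.01. The transaminases act on glutamate, so 1 of the 4 higher genes, Ppat, encodes an enzyme that consumes glutamine. For arginine and ornithine, 2 of 11 were higher and 1 lower. Odc1, the rate-limiting enzyme of polyamine synthesis, read 9.11 in EWS-OCT4A-GFP and 7.66 in GFP, a difference of 1.45, and Oaz1, which encodes its antizyme, differed by 1.17. Asl, which releases arginine from argininosuccinate, read 6.17 in EWS-OCT4A-GFP and 8.03 in GFP, a difference of -1.87. For glutathione, 3 of 10 were higher and 2 lower. Cth, which makes cysteine from cystathionine, differed by 1.73 (7.20 in EWS-OCT4A-GFP and 5.47 in GFP), Ggct by 1.06, and Gclc, the catalytic subunit of the first enzyme of glutathione synthesis, by -1.05.

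**Figure D4:**
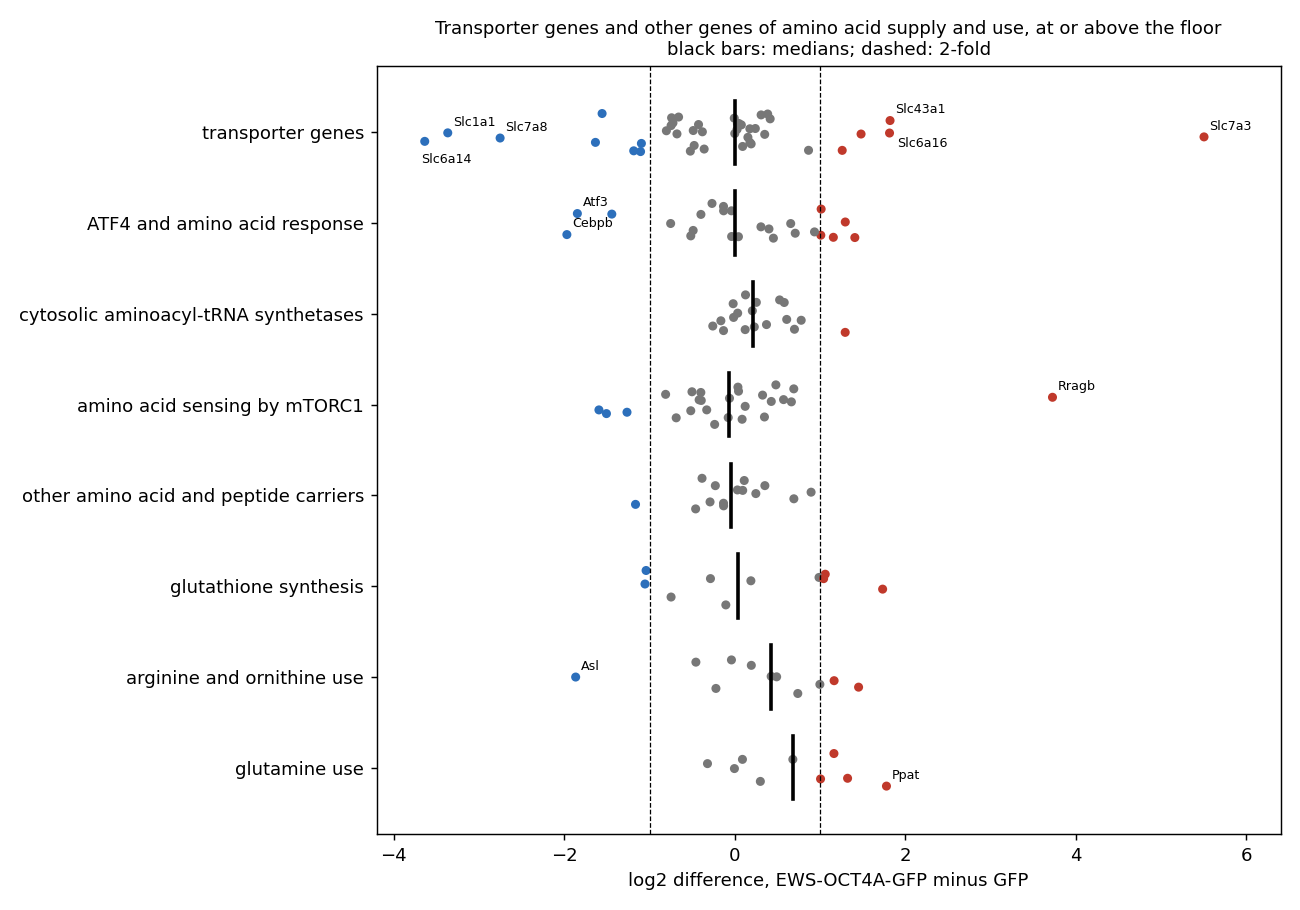
Log2 difference, EWS-OCT4A-GFP minus GFP (horizontal axis), of the transporter genes and of 7 lists of amino acid supply and use, each point a gene at or above the floor, with black bars at the medians. The transporter genes reach from -3.64 (Slc6a14) to 5.50 (Slc7a3), and the medians of the lists run from -0.07 for mTORC1 sensing to 0.68 for the list of glutamine and glutamate enzymes (glutamine use on the axis).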

How the data were processed

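The authors deposited 1 table with a column for each of the 2 samples and a row for each of 33793 probe sets. Per the submitters' processing notes, the values were made with Affymetrix Expression Console 1.1 by RMA, which corrects background, quantile-normalizes arrays and summarises probes. The deposited values were taken as log2, since RMA gives log2 and they ran from 0.618 to 13.0. The table names no log base. Quantile normalization hides a shift shared by most transcripts, and RMA compresses differences of weak signals. No detection call was used. The number of arrays limits the precision.

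Gene names came from the platform's annotation table (23521 with 1 symbol, 1814 with several, 8458 with none). All 63 transporter genes matched RefSeq GRCm38.p6 by gene ID with the same symbol. No source used here names that table's genome build, so the only coordinates printed are those of the RefSeq promoter windows. A difference is EWS-OCT4A-GFP minus GFP. A gene passes at 2-fold with its higher value at or above the floor. Every transporter gene at or above the floor could be named, and up to 4 genes of each pathway list, by size of difference. Gene members and lists were chosen with earlier results of these data known. Alternatives covered threshold, floor, normalization and probe set rule. A comparison of the cationic carriers' protein sequences was not made. Python 3.11.15, numpy 2.4.6, pandas 2.3.3, statsmodels 0.14.6 and matplotlib 3.10.9 were used.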

Additional observations from a re-analysis of the deposited data

How the results depend on the processing

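With 1 sample per line no replicate could be left out. No paired analysis was possible because each line has 1 sample. The 5 higher and 8 lower transporter genes became 6 and 14 with a threshold of 1.5-fold, and 3 and 4 with one of 3-fold, by construction. Over all genes, 1259 were higher and 1608 lower, against 2708 and 2784 with a threshold of 1.5-fold and 464 and 786 with one of 3-fold. With the floor at the 75th percentile (5.80) or at 6, 1 transporter gene, Slc7a3, stayed higher and 8 stayed lower. Over all genes, 926 were higher and 1314 lower with the floor at the 75th percentile, and 873 and 1246 with it at 6. The median difference of the transporter genes moved to -0.48 and -0.49, and that of all genes at these floors was not computed. With both values required at or above the floor, an alternative chosen after seeing the data, 7 were lower and 0 higher, which the GFP values under the floor fix in advance. Loess centring moved the median to -0.11, and that of all genes by -0.07. Its cause was not tested. The 13 calls were each kept under median centring, quantile normalization and loess centring, and none changed direction. Averaging of probe sets could not alter them, because none of the 13 genes has a further probe set. Leaving out the 3 opposite-strand genes, or also the monoamine and orphan carriers and Slc43a3, left 5 and 8, or 4 and 7. Both of these alternatives were chosen after seeing the data. The 7 still hold the taurine and creatine carrier genes Slc6a6 and Slc6a8. No measure of signal over background was used here, so values near the floor are the least certain.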
